A study of Homo sapiens with 9 samples.

Results

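Seed-matched 3′UTR peaks of miR-342-5p are places where Ago was crosslinked, after transfection of the miR-342-5p mimic, beside a sequence that the miRNA can pair with in the 3′UTR of a protein-coding mRNA. They were chosen by position and sequence alone. The midpoint of a miR-342-5p peak had to lie on the same strand in an annotated 3′UTR, and an 8mer, 7mer-m8 or 7mer-A1 match to the seed had to lie within 50 nt of the summit. The rule selected 372 of the 868 miR-342-5p peaks in 3′UTRs (42.9%, 95% CI 39.6–46.2), which are 7.43% (CI 6.73–8.18) of the 5010 peaks in the miR-342-5p list and lie in 334 genes. The series holds 8460 peaks in both of its lists.

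The peaks come from Ago-HITS-CLIP, in which UV light fixes Ago to its bound RNA, Ago is immunoprecipitated and the attached RNA is sequenced. The cells were MDA-MB-231HM (231HM), a highly metastatic derivative of the human triple-negative breast cancer (TNBC) line MDA-MB-231 with the WT genotype. All cells were transfected with Lipofectamine RNAiMAX and 20 nM of a miRVana mimic for 48 h, which was miR-342-5p, miR-342-3p or the negative control, with 3 libraries each. The authors merged the replicates and gave 1 list of peaks per miR-342 strand, called against the negative control. Both lists therefore share the negative control libraries, no value per library was given, the depth is unknown and no replicate error could be computed. The score of a peak is the number of reads above background. Since mRNA levels are not in the lists, a higher score cannot be told apart from a more abundant mRNA, and the cell line could not be checked against its markers. Tests and intervals treat peaks or sites as independent and cover counting error only.

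A miRNA guides Ago to mRNAs mainly through its seed, the bases that follow the first base at its 5′ end. Matched mRNAs, most often bound in the 3′UTR, are as a rule destabilised or translated less. MiR-342-5p is the strand of the miR-342 hairpin that derives from its 5′ arm, and its seed differs from that of miR-342-3p. An 8mer pairs with bases 2 to 8 of the miRNA and has an A opposite its first base, a 7mer-m8 lacks this A, and a 7mer-A1 has the A but lacks the pair at base 8.

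The mature miR-342-5p (RefSeq), with the seed in capitals, has the sequence below, which gives GCACCCCA as the 8mer and GCACCCC and CACCCCA as the 7mers.
hsa-miR-342-5p: aGGGGUGCuaucugugauuga

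The sites of 9 of the 10 highest seed-matched 3′UTR peaks are shown first, from RTN4 down to KLHL21, because of their high scores among the selected peaks. PRELID1, EGFR and ACLY follow as genes from the pathways described further on. Each run covers 30 nt of the GRCh37 reference, 5′ to 3′ in the sense of the mRNA, with the site in capitals and the position and strand of the run in parentheses.
RTN4 (chr2:55199690-55199719, minus): uagaccuuuaccuuccagcCACCCCAcagu
ADM (chr11:10328524-10328553, plus): cugauuucucacggcguguCACCCCAccag
PSAP (chr10:73576355-73576384, minus): gaggcgcugcuucagccuGCACCCCucccu
CCND1 (chr11:69468787-69468816, plus): gccgaaccaaaagaauuuGCACCCCgcugc
RBMS2 (chr12:56983473-56983502, plus): guaaagcucucagcucauGCACCCCAucuc
ENSG00000285043 (chr16:30080878-30080907, plus): ugcugaagcccaacaugguCACCCCAggcc
GNAI2 (chr3:50296480-50296509, plus): gccgcccccgugcgagcgGCACCCCugccc
AP2S1 (chr19:47341544-47341573, minus): gccacaagggaggagacuGCACCCCAcugc
KLHL21 (chr1:6650900-6650929, minus): ccaguguccacauccaguuCACCCCAgagg
PRELID1 (chr5:176733573-176733602, plus): cagucuaccaccaccacaGCACCCCAgaca
EGFR (chr7:55276263-55276292, plus): cuaauuacaccaugcccguCACCCCAugag
ACLY (chr17:40023636-40023665, minus): agauacuauacauuuaaaGCACCCCAaugu

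The highest seed-matched peak lay in the 3′UTR of RTN4, which encodes a reticulon that shapes the tubules of the endoplasmic reticulum, with a score of 1365 on a 7mer-A1. ADM, which encodes the vasodilator peptide adrenomedullin, had a score of 634 on a 7mer-A1. PSAP, the precursor of the saposins that help to degrade sphingolipids in lysosomes, had a score of 630 on a 7mer-m8. A 7mer-m8 peak of 404 lay in CCND1, which encodes the cyclin D that drives entry into S phase. The gap between RTN4 and ADM was larger than the whole score of ADM.

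Lower among the 10 highest was RBMS2 (255, 8mer), an RNA-binding protein. GNAI2, an inhibitory G protein subunit, had a score of 231 on a 7mer-m8. AP2S1, the small subunit of the clathrin adaptor of the plasma membrane, had 198 on an 8mer, and KLHL21, an adaptor of a ubiquitin ligase, had 192 on a 7mer-A1. The peak with a score of 254 was assigned to ENSG00000285043, a gene without a symbol, and lies at the same time in a coding exon of ALDOA, which encodes a glycolytic aldolase. Of all 372 peaks, 33 lie in a coding exon of another transcript. The 3′UTR of a canonical transcript holds 340, including all 10 of the highest. A 7mer was the site of 7 of these 9 peaks. The 9 sites lie between 0 and 12 nt from the summit, and the summits of CCND1, RBMS2 and AP2S1 fall on the site.

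Most genes had a single seed-matched 3′UTR peak (304 of 334), 25 had 2 and 5 had 3 or more. The 372 peaks use 360 distinct sites, because 24 peaks share their site with a neighbour. An example is ACLY, where a peak of 7 beside that of 21 lies 29.5 nt from the same site. ANKRD11, a chromatin regulator, had the most peaks with 5. Then came GLIS2, a zinc finger transcription factor, with 4 peaks scored 14, 12, 8 and 6. PTPN14, a tyrosine phosphatase of the Hippo pathway, had peaks of 66, 14 and 9. Its peaks of 66 and 9 share a site, and that of 66 also lies in a coding exon of another PTPN14 transcript. LCOR, a nuclear receptor corepressor, had 15, 13 and 10. PRKCA, a protein kinase C, had 15, 10 and 5, and its peaks of 15 and 5 share a site. Outside ANKRD11 and PTPN14, repeated peaks in these genes stayed at scores of 15 or less.

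The ANKRD11 peaks stood apart in their sequence. They had scores of 72, 49, 46, 45 and 35, and the best site of each was an 8mer. They lie in the 3′UTR of 1 short transcript (chr16:89365276-89367221, 1946 nt, minus strand) and in no exon of the canonical transcript. This stretch holds 28 sites of 7 or 8 nt, 23 of them 8mers. The site of each peak, in the order of the scores, is shown because the surroundings share stretches of sequence.
ANKRD11 (chr16:89365976-89366005, minus): acagggcacagaccccacGCACCCCAcacg
ANKRD11 (chr16:89366516-89366545, minus): acagggcacagaccgcacGCACCCCAcaca
ANKRD11 (chr16:89366651-89366680, minus): gcguguagcagaccccacGCACCCCAcaca
ANKRD11 (chr16:89366318-89366347, minus): gcaccacacacagggcagGCACCCCAcaca
ANKRD11 (chr16:89366156-89366185, minus): gcaccccacacagggcagGCACCCCAcaca

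A further 6 peaks in 3′UTRs of ANKRD11 had no site within 50 nt. How reads that map to several places were treated is not given in the sources used here. Around the summits of 3 ANKRD11 peaks lay 3 or 4 sites, and the only other peak with 3 or more sites was that of ATP2A2 (score 58), the calcium pump of the endoplasmic reticulum. In all, 18 peaks had several sites within 50 nt. A score above 50 was found in 4 of these 18 (22.2%) and in 72 of the 354 peaks with a single site (20.3%). The difference was 1.88 percentage points (CI −12.1 to 25.2, adjusted exact p = 0.830, two-sided Fisher's exact test with Benjamini-Hochberg adjustment over 14 tests, as for each adjusted exact p given here).

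Of the 372 peaks, 101 had an 8mer (27.2%), 141 a 7mer-m8 (37.9%) and 130 a 7mer-A1 (34.9%). Over all sites of these types in annotated 3′UTRs, the 8mer made up 12.3%, the 7mer-m8 25.2% and the 7mer-A1 62.6%. The median score of the seed-matched peaks was 21 (quartiles 13 and 44, range 5–1365). By type, it was 28 for 8mers (quartiles 14 and 61), 18 for 7mer-m8 sites (12 and 33) and 22 for 7mer-A1 sites (14 and 42.75). The 496 peaks in 3′UTRs without such a site had a median of 15 (quartiles 10 and 27.25). Among these, the 168 with a 6mer match alone had a median of 18 and the 328 without a match a median of 14.

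A score above 50 was more frequent in 3′UTR peaks with a seed site than in those without. It was found in 76 of 372 (20.4%, CI 16.6–24.8) and by 60 of 496 (12.1%, CI 9.51–15.3), where 17.0% of all miR-342-5p peaks had one. The difference was 8.33 percentage points (CI 3.40–13.4, adjusted exact p = 0.00660). Within the seed-matched peaks, 8mers passed a score of 50 more often, in 31 of 101 (30.7%, CI 22.5–40.3), than 7mers, in 45 of 271 (16.6%, CI 12.6–21.5). This difference was 14.1 percentage points (CI 4.58–24.4, adjusted exact p = 0.0132). The first difference fell to 6.21 percentage points (adjusted exact p = 0.0845) at a minimum score of 10, and neither test passed at a score above 100, which 30 of the 372 peaks exceeded (8.06%, against 7.21% of all miR-342-5p peaks).

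Between the types of 7mer, no difference was detectable at this number of peaks. A score above 50 was found in 20 of 141 peaks with a 7mer-m8 and in 25 of 130 with a 7mer-A1, a difference of −5.05 percentage points (CI −14.1 to 3.86, adjusted exact p = 0.416). The 967 coding-exon peaks with a site had a median score of 26 (quartiles 15 and 51), and 244 of them (25.2%, CI 22.6–28.1) exceeded 50. Compared with these, the 3′UTR peaks differed by −4.80 percentage points (CI −9.53 to 0.318, adjusted exact p = 0.147). The 8mer peaks in coding exons exceeded 50 in 26.7% of cases and those in 3′UTRs in 30.7%, a difference that was not tested.

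**Figure D1:**
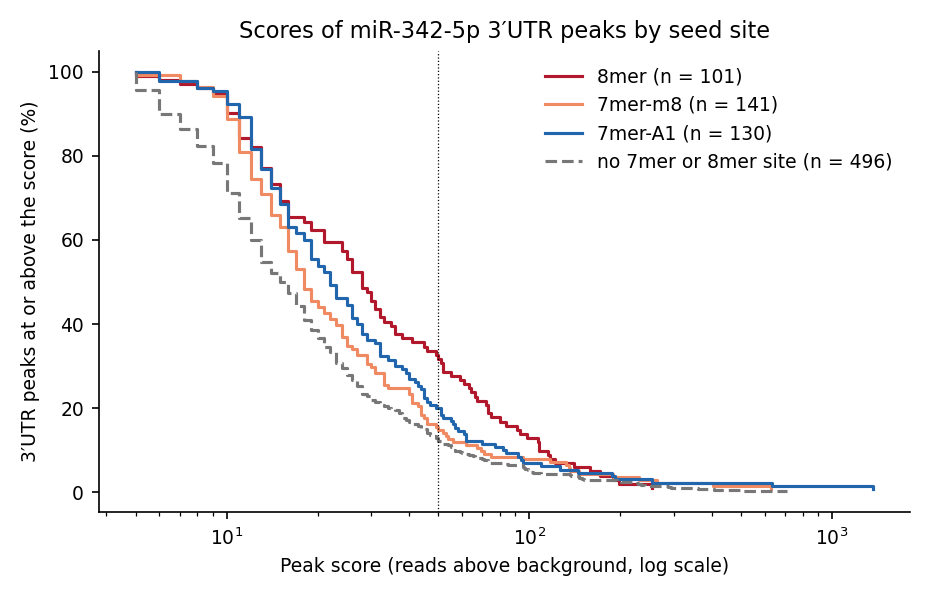
Share of miR-342-5p 3′UTR peaks (y axis, %) at or above a score (x axis, reads above background, log scale), for the 101 peaks with an 8mer, 141 with a 7mer-m8, 130 with a 7mer-A1 and 496 with none of these, with a dotted line at a score of 50. The 8mer line lies highest around 50, where 30.7% of its peaks have a larger score, and the line of peaks without a site falls off first, with a median of 15.

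The rule admitted only sites within 50 nt of the summit, so the distances below are a description inside that limit. The nearest site was at a median distance of 7 nt from the summit, with 125 peaks within 5 nt, 281 within 10 nt and 348 within 25 nt. In 86 peaks the summit fell on the site itself. The site lay 3′ of the summit in 216 peaks, 5′ of it in 146 and exactly on it in 10, with a median of 3 nt on the 3′ side. Of the 24 peaks with a site farther than 25 nt, 13 share that site with another peak, and 13 have a score below 10. Their median score was 9, against 23 for the 348 nearer peaks.

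The summit was within 10 nt of a site in 281 of 372 peaks in 3′UTRs (75.5%), where 75.9% of all miR-342-5p peaks with a site had this distance, and in 716 of 967 coding-exon peaks with a site (74.0%). For 8mers in 3′UTRs this share was 69.3% and for 7mers 77.9%. All of these peaks were chosen for a site within 50 nt, so no test is given for the shares. Just inside the limit of 50 nt were peaks of RAD21, a cohesin subunit (score 63, 47.5 nt), COTL1 (36, 47.5 nt), PRKCA (5, 45.5 nt) and MUL1 (40, 45 nt). The 8mers of RAD21 and COTL1 extend past the limit, with only a 7mer part inside, and were still counted as 8mers. Just outside were the peaks of SUPT6H (24, 49 nt), SLC17A9 (12, 49 nt), PTBP1 (63, 50 nt) and ZBTB7A (13, 51 nt), whose 7mers do not lie wholly in the window. A site within 60 nt but not within 50 nt was found in 12 peaks in 3′UTRs.

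**Figure D2:**
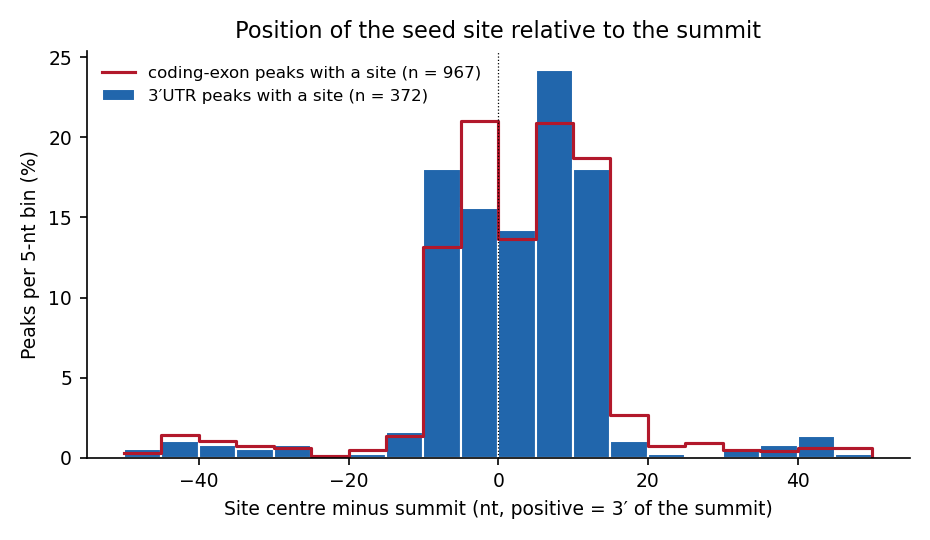
Distance from the summit to the centre of the best seed site (x axis, nt, positive on the 3′ side) as a share of peaks per 5-nt bin (y axis, %), with bars for the 372 seed-matched 3′UTR peaks and a line for the 967 coding-exon peaks with a site. Both fall mainly between −10 and 15 nt, and the fullest bin of the 3′UTR peaks, from 5 to 10 nt, holds 90 of them (24.2%).

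To see which of the available sites carried a peak, every seed match in annotated 3′UTRs was searched. The main set was 3′UTRs of genes that also had a peak in the miR-342-3p list (3p-bound genes). It served as a guide to genes transcribed in 231HM cells and reached by Ago. The miR-342-3p peak could lie anywhere in the gene, introns included, so it does not show that Ago reached the mature mRNA. Its mimic libraries differ from those of miR-342-5p, while the negative control libraries are shared. In this set a summit lay within 50 nt of 148 of 952 sites of 7 or 8 nt (15.5%), against 6.16% in the 3′UTRs of all protein-coding genes. A peak was found at 42 of 133 8mers (31.6%, CI 24.3–39.9), 46 of 219 7mer-m8 sites (21.0%, CI 16.1–26.9), 60 of 600 7mer-A1 sites (10%, CI 7.85–12.7) and 74 of 1238 6mers (5.98%, CI 4.79–7.44).

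The share fell from 7mer-m8 to 7mer-A1 by 11.0 percentage points (CI 5.45–17.3, adjusted exact p = 0.00119) and from 7mer-A1 to 6mer by 4.02 percentage points (CI 1.42–6.94, adjusted exact p = 0.0132). The step from 8mer to 7mer-m8, 10.6 percentage points (CI 1.22–20.2), did not pass the test (adjusted exact p = 0.0723). Without ANKRD11 it was 5.36 percentage points (adjusted exact p = 0.384). Over all protein-coding genes, with ANKRD11 included, it was 3.96 percentage points with an adjusted exact p of 0.0108. The step from 7mer-A1 to 6mer did not pass in genes bound by miR-342-5p in coding exons (2.09 percentage points, adjusted exact p = 0.283). Over all protein-coding genes, 113 hold sites of 7 or 8 nt both with and without a peak. In these, the 8mer share was taken over all 7mer and 8mer sites, so it does not test 8mers against 7mer-m8 sites alone. It was higher among the sites with a peak in 35 genes, lower in 12 and equal in 66 (two-sided exact binomial test, p = 0.00109). The 7mer-A1 share was higher in 16, lower in 67 and equal in 30 (p = 1.39e-08 by the same exact test). Most 8mers had no peak, in either set of genes.

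**Figure D3:**
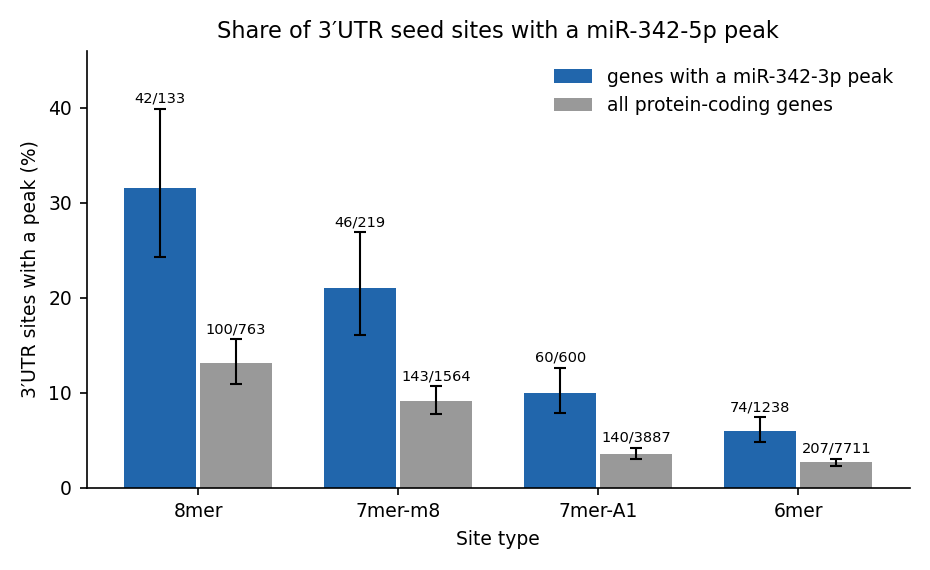
Share of 3′UTR seed sites (y axis, %) with a miR-342-5p summit within 50 nt, by type of site (x axis), in 3p-bound and in all protein-coding genes, where bars start at 0, error bars are 95% Wilson intervals and the numbers are sites with a peak over all sites. The share falls from 31.6% for 8mers to 5.98% for 6mers in 3p-bound genes and from 13.1% to 2.68% in all protein-coding genes.

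Beyond the seed, miRNAs can pair with the mRNA through bases nearer to their 3′ end, and bases 13 to 16 are the stretch best known for this. Pairs were scored as at least 3 contiguous letters complementary to these bases, anywhere in the 16 nt upstream of the site. Whether they form a duplex together with the seed was not evaluated. Such possible pairs were present at 72 of 148 sites with a peak (48.6%, CI 40.7–56.6) and at 292 of 804 without (36.3%, CI 33.1–39.7). The difference was 12.3 percentage points (CI 3.72–21.0, adjusted exact p = 0.0158). The test did not pass without ANKRD11, where the shares were 43.3% and 35.2% and the difference 8.09 percentage points (adjusted exact p = 0.161). It also did not pass over all protein-coding genes (5.41 percentage points, adjusted exact p = 0.0760) or in genes bound by miR-342-5p in coding exons (10.8 percentage points, adjusted exact p = 0.0580). All 28 ANKRD11 sites, 14 with and 14 without a peak, had such pairs. In the 16 nt downstream of the site, where the same letters could not pair in this way, the shares were 44.6% and 38.7% (exact test, p = 0.200). Without ANKRD11 they were 38.8% and 37.6%, and upstream was not tested against downstream.

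By type, such pairs were found at 29 of 42 8mers with a peak (69.0%) and at 36 of 91 without (39.6%). Leaving out ANKRD11, these were 16 of 29 (55.2%) and 26 of 81 (32.1%). For 7mer-m8 sites the shares were 32.6% and 32.4%, and for 7mer-A1 sites 46.7% and 37.0%. Within the 113 genes that hold both kinds of sites, the share was higher at sites with a peak in 34 genes, lower in 33 and equal in 46 (exact binomial test, p = 1). Of the 372 peaks, 156 (41.9%) had such pairs and 33 had all 4, as do AP2S1, KLHL21 and PRELID1 above and PFN1. Among the 76 peaks with a score above 50, these pairs were present in 42 (55.3%), and among the other 296 in 114 (38.5%), which is given as a description only.

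Contiguous pairing from the seed into the centre of the miRNA was rare. Of the 242 peaks with an 8mer or 7mer-m8, pairing went on to base 9 in 72, including PRELID1 and ACLY, to base 10 in 7 and to base 11 in 2. In 3p-bound genes, a pair at base 9 was present at 30.7% of 88 such sites with a peak and at 31.1% of 264 without.

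**Figure D4:**
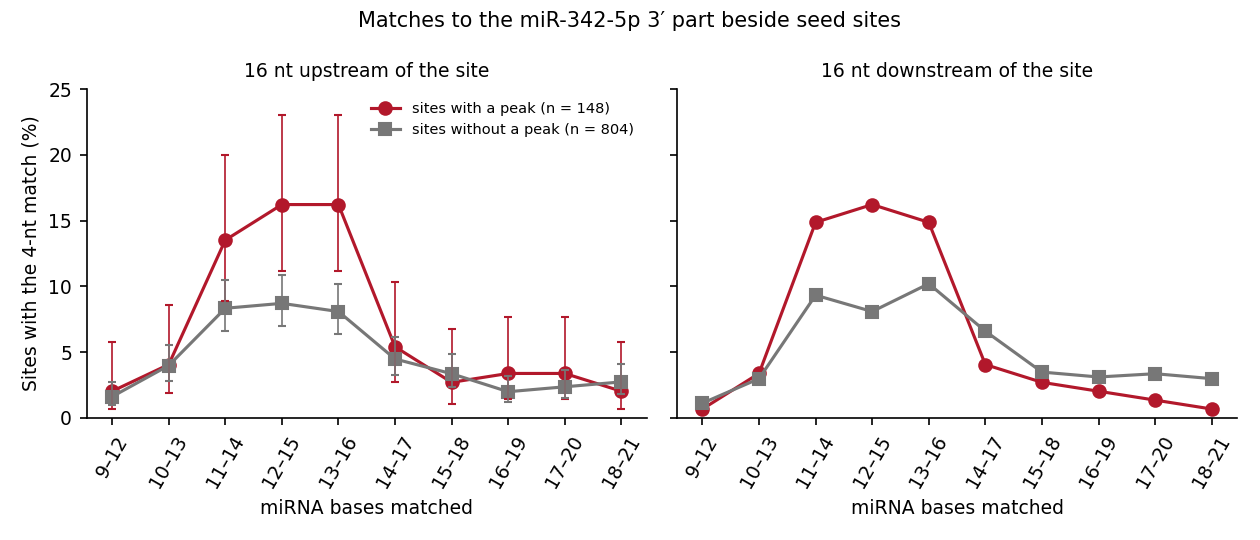
Share of 7mer and 8mer sites (y axis, %) with a match to 4 successive miRNA bases (x axis) in the 16 nt upstream (left, with 95% Wilson intervals) or downstream (right) of the site, for 148 sites with a peak and 804 without, in 3p-bound genes. For bases 13–16 the shares upstream are 16.2% and 8.08%, and sites with a peak also lie higher downstream, at 14.9% and 10.2%. For bases 12–15 the shares are 16.2% and 8.71% upstream and 16.2% and 8.08% downstream.

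The AU content of the 30 nt on each side of the site showed no detectable difference. It exceeded the median of 45% at 68 of 148 sites with a peak (45.9%) and at 360 of 804 without (44.8%), a difference of 1.17 percentage points (CI −7.38 to 9.89, adjusted exact p = 0.857), and its sign turned in other sets of genes. Along the 3′UTR, the 372 peaks lay at a median of 591 nt from the stop codon, 37.0% along 3′UTRs with a median length of 1946 nt. The first 25% of the 3′UTR held 138 (37.1%), among them PFN1 (29 nt from the stop codon), PRELID1 (13 nt) and FOXM1 (43 nt), and the last 25% held 64 (17.2%), among them CCND1 and KLHL21. The 496 peaks without a site had 37.7% in the first 25% and 15.1% in the last 25%.

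Whether sites with a peak lay nearer to the stop codon than those without depended on the genes compared. In 3p-bound genes, the first 25% of the 3′UTR held 31.1% of the sites with a peak and 26.4% of those without, a difference of 4.71 percentage points (CI −2.87 to 13.1, adjusted exact p = 0.375). Over all protein-coding genes these shares were 37.9% and 28.3% (difference 9.58, adjusted exact p = 0.000646), and in genes bound by miR-342-5p in coding exons the difference was 14.0 percentage points (adjusted exact p = 0.00872). Within the 113 genes that hold both kinds, the share was higher at sites with a peak in 42, lower in 30 and equal in 41 (exact binomial test, p = 0.195), with a mean difference of 15.3 percentage points. The 3′UTRs differed in length as well, with a median of 2077.5 nt for sites with a peak and 3007 nt for those without in 3p-bound genes.

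**Figure D5:**
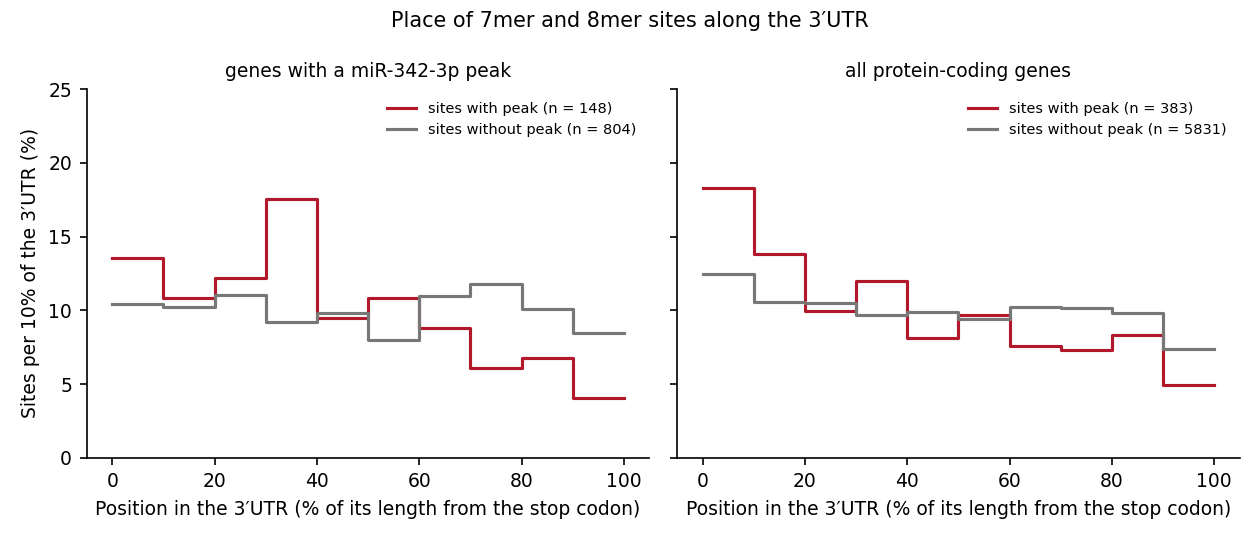
Place of 7mer and 8mer sites along the 3′UTR (x axis, % of its length from the stop codon) as a share of sites per 10% of length (y axis, %), for sites with and without a peak, in 3p-bound genes (left) and in all protein-coding genes (right). In all protein-coding genes the first 10% holds 18.3% of the sites with a peak and 12.4% of those without, and in 3p-bound genes 13.5% and 10.4%.

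Grouped by pathway, genes with a seed-matched 3′UTR peak were found in 8 of 9 lists. Over all 19277 protein-coding genes with a 3′UTR, 1.73% had such a peak, and of 2286 3p-bound genes 5.29%. The first of these shares includes genes that may not be transcribed in 231HM cells. The lists were drawn up with earlier results known and hold genes that the study names, so no test is given for them.

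Endocytosis and vesicle coat genes had a peak in 5 of 41 (12.2%), with a median of the highest score per gene of 45. These were AP2S1 (198), AAK1 (59), a kinase of the clathrin adaptor, the small GTPases RAB5C (45) and ARF1 (27), and the coat protein COPE (13). Of actin cytoskeleton genes, 6 of 43 (14.0%) had one, with a median of 75. The actin crosslinker ACTN4 and the actin monomer binder PFN1 both had 189, ACTB, β-actin itself, had 94, and the actin severing protein CFL1 56. RAC2, a small GTPase, had seed-matched peaks of 25 and 23, and the adhesion protein ZYX 23. With 4 genes above a score of 50, this list had the most of the 9.

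Lipid synthesis genes had a peak in 5 of 30 (16.7%), with a median of 33. They were SREBF2 (52), a transcription factor of cholesterol synthesis, DGAT1 (43), which completes triglycerides, ACSL4 (33), which activates long fatty acids, ACLY (21 and 7 on 1 site), which makes cytosolic acetyl-CoA, and ACACA (17), which makes malonyl-CoA. Receptor signalling genes had one in 6 of 44 (13.6%), with a median of 33.5. Among these, FGFR1 had 62, EGFR 55 and 15, the TGF-β repressor SKI 49, the pseudokinase STRADB 18, ERBB2 13 and SRC 11. The EGFR peaks lie 2906 and 1002 nt after the stop codon, each at a 7mer-A1.

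Extracellular matrix and adhesion genes had a peak in 3 of 40, the collagen COL4A2 (70), the metalloproteinase inhibitor TIMP3 (57) and the integrin ITGB4 (16). Chromatin regulators also had 3 of 40, among them the histone methyltransferase SETD1A (19) and NACC1 (15). In the mitochondrial and energy list, 2 of 36 genes had one, CKB (146), a creatine kinase, and PRELID1 (51), which carries phosphatidic acid within mitochondria. In the cell cycle list, 2 of 43 did, CCND1 (404) and the mitotic transcription factor FOXM1 (41). Of the 36 genes of RNA silencing and mRNA decay, none had a seed-matched 3′UTR peak.

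Restricted to 3p-bound list genes, the counts were 4 of 11 for lipid synthesis, 3 of 16 for receptor signalling and 3 of 21 for matrix and adhesion. For chromatin they were 2 of 18, for the actin cytoskeleton 2 of 20 and for endocytosis and vesicle coats 1 of 14. They were 0 of 13 for the cell cycle, 0 of 13 for RNA silencing and 0 of 11 for the mitochondrial list. CCND1, FOXM1, CKB and PRELID1 thus had a seed-matched 3′UTR peak of miR-342-5p but no miR-342-3p peak. Of all 334 genes with a seed-matched peak, 121 (36.2%) had a miR-342-3p peak. Among all 19277 protein-coding genes with a 3′UTR, 2286 had one. The study lists 8 genes whose mRNA fell more than 2-fold with miR-342-5p and that it bound in the 3′UTR. Of these, 7 had a seed-matched peak, which includes NFIA (14), a transcription factor, while TTYH3 had none. Since that list was drawn in part from these peaks, this count is no independent evidence.

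The peaks of the other strand of the hairpin rarely coincided. A miR-342-3p peak overlapped 4 of the 372 seed-matched peaks (1.08%, CI 0.419–2.73), where 1.42% of all miR-342-5p peaks had such an overlap. These were ACSL4 (33, with 26 for miR-342-3p), the kinase PSKH1 (19 and 13), the tumour suppressor RASSF1 (12 and 63) and the acetyltransferase KAT2A (11 and 10). Among 3′UTR peaks without a site, 12 of 496 overlapped (2.42%), a difference of −1.34 percentage points (CI −3.22 to 0.607, adjusted exact p = 0.315). At the level of genes, 121 of the 334 (36.2%) also had a miR-342-3p peak, against 2286 of all 19277 protein-coding genes with a 3′UTR. A miR-342-5p peak within coding exons was found in 99 of the 334 (29.6%), which in 37 (11.1%) had a seed site. In the 225 genes whose 3′UTR peaks all lack a site, these shares were 33.3%, 43.6% and 20.0%. The differences between these groups of genes were not tested.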

How the data were processed

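Ago-HITS-CLIP peaks were taken from the 2 lists deposited by the authors, who mapped reads to hg19 and called peaks per miR-342 strand against the negative control, with the 3 replicates of each group merged. The submitters' processing notes name cutadapt 1.13, TopHat2 2.0.13, UMI-tools and MACS2 2.1.1.20160309. In the deposited lists, the score of a peak counts reads above background and is at least 5, and how libraries were scaled to each other is not given in the sources used here. No depth or value per library was given.

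Peaks were placed by midpoint and strand on GRCh37 with the basic protein-coding transcripts of GENCODE release 44, a 3′UTR before a coding exon. The stop codon was not counted as 3′UTR, and the mitochondrial chromosome was left out. Seed matches were searched in 101 nt centred on the summit, and over all annotated 3′UTRs a site had a peak when it lay wholly within 50 nt of a summit. Coordinates are printed 1-based. The mature miRNA came from the RefSeq table of GRCh38, from which no coordinate was taken.

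Shares were compared by two-sided Fisher's exact tests, adjusted by the Benjamini-Hochberg method over 14 tests, at a threshold of 0.05. The 2 of these on distances between site and summit are given as shares only, since the rule used this distance. Intervals are 95% Wilson intervals, and Newcombe intervals for differences. Python 3.11.15, scipy 1.17.1, numpy 2.4.6, pandas 2.3.3, pysam 0.24.0 and matplotlib 3.10.9 were used, and the site search, placement and share test were tested on simulated data. The alternatives were another minimum score, location rule, window, distance, score threshold, set of genes, flank or number of pairs, and 1 peak per gene. Genes were named when among the 10 highest scores, in the study's lists of 3′UTR or shared targets, with 3 or more peaks or sites, overlapping a miR-342-3p peak, nearest to the limit of 50 nt or among the 4 highest genes of a pathway list. COPE, ZYX, ACACA, ERBB2 and SRC were named as well, after their values were seen, to complete their lists. Some genes and sequences that meet this rule are not reported here. The members and lists were chosen with earlier results of these data known.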

Additional observations from a re-analysis of the deposited data

How the results depend on the processing

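The number of seed-matched 3′UTR peaks and the tests were recomputed under 106 combinations of a result and an alternative. Of these, 84 kept the direction and the side of the threshold or, for the number of peaks, a similar value. A further 9 lost significance, 6 gained it and 7 changed sign. The 9 include the downstream control for pairing, and the distance tests given above as shares only are counted too. The 6 include the 8mer share within genes, counted under the step from 8mer to 7mer-m8 although it is a share of all 7mer and 8mer sites. The score comparison of 3′UTR peaks with and without a site was 6.21 percentage points (adjusted exact p = 0.0845) at a minimum score of 10 and 3.23 (0.180) at a score above 100, and that of 8mers and 7mers was 5.24 (0.231) at a score above 100. With the score above 100, the difference between 7mer-m8 and 7mer-A1 turned to 0.94. The nearness of summits to sites against coding exons turned to −0.57 with the highest peak per gene only and to −2.90 within 5 nt. In genes with a miR-342-5p coding-exon peak, the step from 8mer to 7mer-m8 was 15.1 (adjusted exact p = 0.0313), from 7mer-A1 to 6mer 2.09, AU content −6.98, pairing to bases 13 to 16 10.8 (adjusted exact p = 0.0580) and the first 25% of the 3′UTR 14.0. Over all protein-coding genes these were 3.96 for 8mer to 7mer-m8, −1.88 for AU content, 5.41 (adjusted exact p = 0.0760) for pairing and 9.58 for the first 25% of the 3′UTR. Where the peak had to cover the site, the step from 8mer to 7mer-m8 was 18.1 (adjusted exact p = 0.00164) and AU content −3.49. ANKRD11 was included in each of these alternatives. Alternatives chosen after seeing the data gave, within 113 genes that hold both kinds of sites, mean differences of −0.84 for AU content, 4.69 for pairing, 15.3 for the first 25% of the 3′UTR and 21.0 for the 8mer share, for pairing 5.91 downstream of the site, and for pairing 8.09 without ANKRD11, whose 28 sites lie in 1 3′UTR. The cause of these changes was not tested. No paired analysis was possible because the replicates were merged before deposit. The unknown depth and the missing values per library leave the spread between replicates unmeasured for every comparison.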

Other observations

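The windows of 101 nt around the summits were also searched, on the strand of the peak only, for words known from other regulators of mRNA. AUUUA, the core of AU-rich elements, was present around 21 of the 372 seed-matched summits (5.65%, CI 3.72–8.48) and around 30 of the 496 3′UTR summits without a site (6.05%). It was present in 64 of 804 windows of the same length (7.96%) centred on 3′UTR sites without a peak in genes with a miR-342-3p peak. The polyadenylation signal AAUAAA was found in 4.30% (CI 2.66–6.87), 5.24% and 3.48% of these windows. UGUANAUA, the word bound by Pumilio proteins, was found in 4 (1.08%), 4 and 6 of them. A seed match of 7 or 8 nt for miR-342-3p was present in 7 of the windows around seed-matched summits (1.88%, CI 0.914–3.83), in 9 around 3′UTR summits without a site (1.81%) and in 10 around sites without a peak (1.24%).

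The median GC content was 57.4% around seed-matched 3′UTR summits, 58.4% around those without a site, 60.4% around coding-exon summits with a site and 56.4% around 3′UTR sites without a peak. AUUUA was found around 2.59% of the coding-exon summits with a site. These values are descriptions, and none of the differences was tested.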
